A study of Mus musculus with 6 samples.

Results

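Genes of DNA replication and DNA repair were followed on 6 arrays, each of keratinocytes that had been sorted from K15-EGFP transgenic mouse skin. The set is a fixed list of 43 gene symbols, and its members are all probe sets whose platform annotation gives a listed symbol and no other. This found 41 genes on 54 probe sets, of 8251 named genes and 12422 probe sets in all. No probe set was paired with Pole, and Tyms was paired only with probe sets that carry several symbols, so neither is described. In these mice a keratin 15 promoter drives enhanced green fluorescent protein (EGFP), and every sample was also gated on surface α6 integrin, which basal keratinocytes carry. The EGFP-high group held 3 samples of cells with high EGFP and α6 integrin. The EGFP-negative group held 3 samples of cells without EGFP and with α6 integrin. This promoter is active in the bulge of the hair follicle, the niche of its stem cells, and a group is a gate on promoter activity and not a single cell type. Strain, age, hair cycle stage and whether replicates are separate mice were not stated in the labels used here. The p-values therefore measure the spread among these 6 samples alone, which may be technical in part.

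A cell copies its DNA once per division. In G1 the origin recognition complex and Cdc6 load the Mcm2 to Mcm7 helicase onto origins, geminin blocks a repeat loading, and at the start of S phase Cdc45 joins the helicase and the origins fire. Primase and polymerase α begin each strand, polymerases δ and ε extend it on the sliding clamp Pcna, and Fen1 and Lig1 join the lagging strand fragments. Ribonucleotide reductase and thymidine kinase supply the nucleotides. E2F transcription factors drive many of these genes in late G1. Bulge stem cells are known to divide rarely during the resting phase of the hair cycle, and basal keratinocytes outside the bulge are known to divide more often.

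The values are intensities scaled by array, analysed as log2(intensity + 19.3), and a difference is always EGFP-high minus EGFP-negative on that scale. A gene counted as called at an adjusted p below 0.05 from limma, fitted over all 7453 probe sets above a filter on low values. A gene with several probe sets is represented by its brightest. The background level is the 95th percentile of 19 control probe sets for bacterial and yeast transcripts, which was 25.5 to 42.25 over the arrays. Itga6, the gene of the gated α6 integrin, was 405.6 to 585.3 in EGFP-high and 1050 to 1371.4 in EGFP-negative cells (difference -1.26, limma adjusted p = 0.00449), although both gates required the protein. Cd34, a bulge marker on which no gate was set, was 1338.8 to 1579 and 29.4 to 40.9. The probe sets of Krt15, whose promoter drives EGFP, and of Krt14 were at or below the background level on every array, so they give no check of the gates. Of 9 bulge markers on the array 7 were called higher and 0 lower, and their summed intensity was 14859.6 to 16706.7 against 1741 to 2199.6. Of 8 basal keratinocyte markers 2 were called lower, the gated Itga6 among them, and 0 higher, with sums of 13479.4 to 16047.5 against 16591.9 to 19353.7. Krt5, on the same list as Krt14, read 16.8, 48.9 and 21.6 against 11.7, 12.6 and 10. It was above background in EGFP-high replicate 2 only. Summed intensities of the other marker lists were 367.5 to 514.9 against 233 to 508.5 for 8 leukocyte genes, 1064.7 to 1380.7 against 1084.8 to 1256.7 for 8 fibroblast genes and 127.4 to 204.1 against 79 to 179.7 for 5 endothelial genes. They were 337.6 to 515.4 against 282.7 to 313.7 for 6 melanocyte genes and 670.7 to 859 against 476.4 to 603.9 for 8 hair matrix and shaft genes. The leukocyte markers Lyz2, Fcer1g and Tyrobp, the fibroblast markers Col3a1 and Vcan and the endothelial markers Cdh5 and Tek were at or below background on all arrays. The ratio of the 5′ to the 3′ probe set of β-actin, a measure of RNA and labelling quality, was 0.705, 0.492 and 0.662 in EGFP-high replicates 1, 2 and 3 and 0.795, 0.629 and 0.712 in EGFP-negative replicates 1, 2 and 3. It was lower on the EGFP-high array of every replicate number. The same ratio of Gapdh was 1.206, 0.674 and 1.091 against 1.13, 0.873 and 1.3, so for number 1 it was higher on the EGFP-high array and for numbers 2 and 3 lower. The part of these ratios, and of the marker lists, in the results below was not tested.

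Most replication and repair genes had differences of modest size between the gates. Of 32 tested genes 1 was called lower in EGFP-high cells and 0 were called higher. The 1 gene was Uhrf1, which recruits the maintenance DNA methyltransferase to newly copied DNA. Its EGFP-high values were all under the filter level, an intensity near 44.6, so it passed the filter through its EGFP-negative values. The background shares among all tested genes were 2.27% lower and 3.06% higher. With the replicate number as a block, 3 genes were lower (Uhrf1, Rrm2 and Tk1) and 0 higher, beside 5.33% and 5.29% of all tested genes. With no filter, 0 of 41 members were lower and 0 higher (1.22% and 1.75% of all named genes), and with no filter and the block Uhrf1 alone was lower and 0 were higher (2.36% and 2.74%). Over probe sets rather than genes, 5.19% of those tested were called in either direction. On the log2 scale with its added constant, 1 of the 41 genes, Uhrf1, was at least 2-fold lower and 0 at least 2-fold higher. The shares of all named genes were 1.75% and 2.22%. The added constant shrinks the differences of dim genes. Mean intensities in EGFP-high and EGFP-negative cells were 50.9 against 124 for Rrm1 and 78.9 against 157 for Rrm2. With a constant 25% as large, Rrm1 differed by -0.98 and Rrm2 by -1.0. Genes past 2-fold were not counted with that constant. The members' share of calls was thus near that of the array as a whole in both fits. At an unadjusted p below 0.05, 5 of the 32 were lower (Uhrf1, Rrm2, Fen1, Tk1 and Mcm7), against 9.06% of all tested genes, and 0 higher, against 8.71%. The other 9 members were below the filter and are described without a call.

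Over all 41 genes, with no filter, the median difference was -0.19, beside 0.01 for all 8251 named genes. The difference was negative for 31 of the 41 and for 48.3% of all named genes. It was negative in all 3 same-numbered pairs of arrays for 14 of the 41 and for 19.3% of all named genes. The medians within pairs were -0.25, -0.23 and -0.12 for replicate numbers 1, 2 and 3. The groups did not overlap, with EGFP-high lower, for 8 genes (Uhrf1, Rrm2, Tk1, Fen1, Mcm7, Rfc4, Ccne2 and Hells), beside 9.26% of all named genes. They did not overlap with EGFP-high higher for 1 gene, Msh6, beside 10.9%. Of the 8, Uhrf1, Rfc4, Ccne2 and Hells had all their EGFP-high values under the filter level. The 95% interval of the difference was not adjusted for the number of genes. It excluded a 2-fold fall for 24 of the 32 tested members and lay within 2-fold in both directions for 22. These intervals are from the fit without the block, so they leave out the pairing of same-numbered arrays. They were computed on the scale with 19.3 added, and not with other constants. Intervals given for members below the filter are from the fit with no filter, also without the block. Among tested members, the intervals that reached a 2-fold fall were those of Uhrf1, Rrm2, Rrm1, Tk1, Fen1, Lig1, Mcm7 and Pold2. In such bulk samples, fewer cells in S phase and less RNA per cell cannot be told apart.

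**Figure D1:**
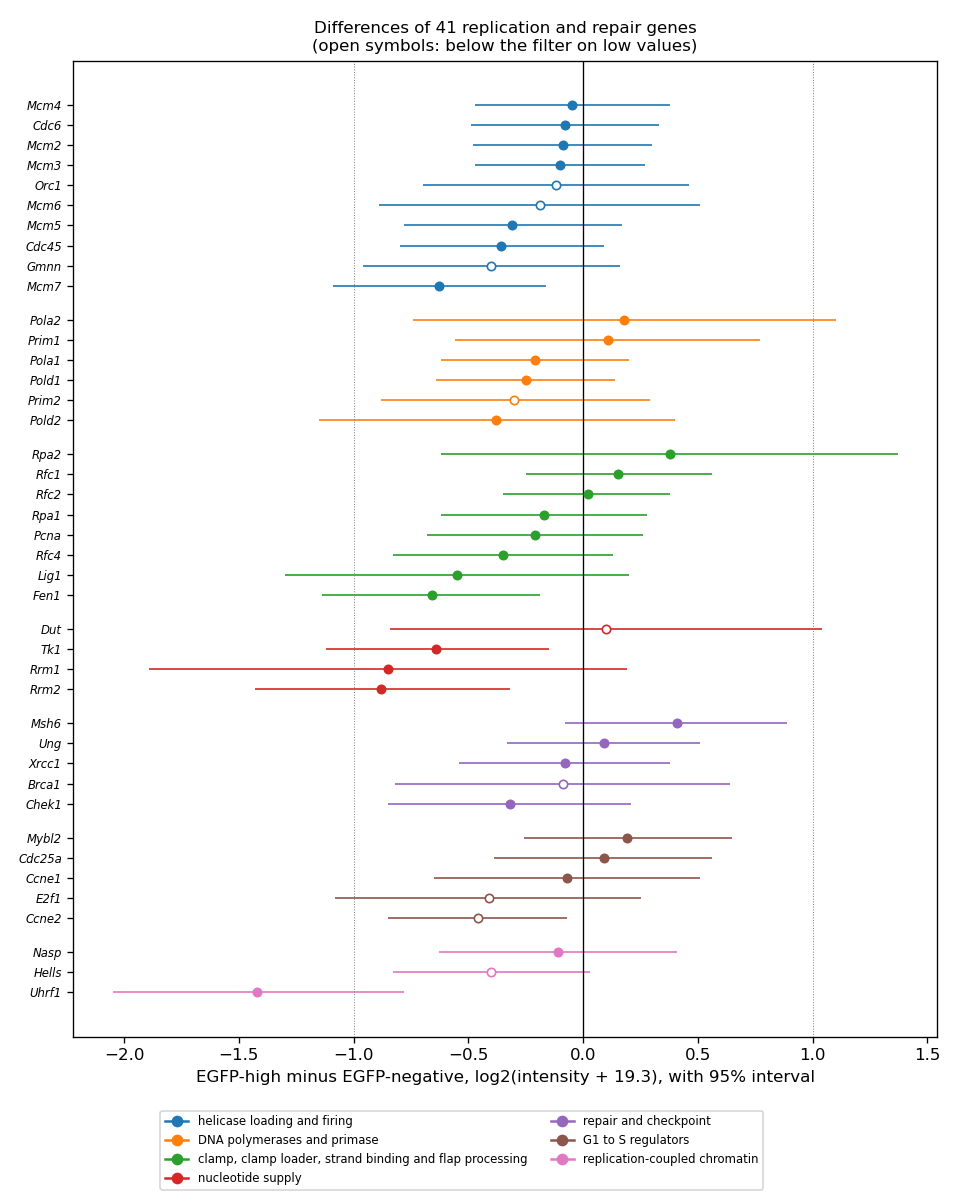
Differences between EGFP-high and EGFP-negative cells (horizontal axis, log2 scale, 3 arrays per group) for the 41 genes, grouped by role, with 95% intervals that are not adjusted for the number of genes. Filled symbols are tested genes and open symbols those below the filter, whose intervals are from the fit with no filter. Dotted lines mark 2-fold on this scale. Most symbols lie between -0.5 and 0.5, and Uhrf1 lies lowest at -1.42.

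Replication-coupled chromatin genes had the largest difference of the set. Uhrf1 read 28.4, 24.6 and 35.3 in EGFP-high replicates 1, 2 and 3 and 156.9, 67.4 and 122.9 in EGFP-negative replicates 1, 2 and 3. Every EGFP-high array was below every EGFP-negative array, and the gap was smallest in replicate number 2. The means were 29.4 ± 5.42 and 116 ± 45.2 (SD, n = 3 each), a difference of -1.42 (SE 0.28, 95% interval -2.05 to -0.78; limma adjusted p = 0.0214, and 0.00816 with the block). In EGFP-high cells 2 of the 3 values were below the background level of their array, so the size of the difference depends on the pseudocount (-0.83 to -1.75 over the alternatives). The call was lost when EGFP-high number 2 (adjusted p = 0.079) or 3 (0.061) or EGFP-negative number 1 (0.075) or 3 (0.0864) was left out, without both arrays of number 1 (0.0892) and, narrowly, when all probe sets were tested with no filter (0.0504). The adjusted p ranged from 0.00816 to 0.0892 over all alternatives. Hells, a chromatin remodeller that supports DNA methylation, read 17.7, 23.4 and 17 against 31.6, 27.2 and 36.7. Its groups did not overlap, but it was below the filter and above background on 1 array only (difference -0.40, 95% interval -0.83 to 0.03). Nasp, a histone chaperone, differed by -0.11 with overlapping groups (95% interval -0.63 to 0.41).

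The genes of nucleotide supply had a median of -0.74 over 4 genes, 2 of which passed with the block. It was the most negative of the role medians with the brightest probe set of each gene. With probe sets averaged it was -0.34, against -0.40 for replication-coupled chromatin. Rrm2, the subunit of ribonucleotide reductase made in S phase, read 52.6, 73 and 111.2 in EGFP-high and 182.7, 126.9 and 162.3 in EGFP-negative replicates 1, 2 and 3. The highest EGFP-high value was below the lowest EGFP-negative value. The means were 78.9 ± 29.7 and 157 ± 28.2 (SD, n = 3 each), a difference of -0.88 (SE 0.25, 95% interval -1.43 to -0.32; limma adjusted p = 0.088, and 0.0447 with the block). Without both arrays of number 1 it was -0.57 (limma adjusted p = 0.3). Tk1, the thymidine kinase of dividing cells, read 210.4, 156.6 and 261.2 against 400.6, 278.8 and 322.4. Again no EGFP-high array reached an EGFP-negative one, and the difference was -0.64 (SE 0.21, 95% interval -1.12 to -0.15; limma adjusted p = 0.15, and 0.0437 with the block). The second Tk1 probe set was at or below background on every array and differed by 0.15. With both probe sets averaged, Tk1 differed by -0.24 (limma adjusted p = 0.551).

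Rrm1, the large subunit of the same reductase, was chosen for description after its values were seen, because its arrays were the most uneven. It read 29.9, 62.5 and 60.3 in EGFP-high and 206.8, 37.3 and 126.4 in EGFP-negative replicates 1, 2 and 3. Replicate number 2 went the other way from numbers 1 and 3, with within-pair differences of -2.20, 0.53 and -0.87 for numbers 1, 2 and 3. The difference over all arrays was -0.85 (SE 0.46, 95% interval -1.89 to 0.19; limma adjusted p = 0.411). Without EGFP-negative replicate 2 it was -1.41 and passed the threshold (adjusted p = 0.0487), and without both arrays of number 1 it was -0.17 (adjusted p = 0.906). The second Rrm1 probe set was at or below background on every array and differed by -0.03. Dut, which clears dUTP, was below the filter and read 6.8, 63.3 and 22.9 against 15.6, 37.6 and 18, with overlapping groups. The alternative reductase subunit Rrm2b, which p53 induces and which serves cells outside S phase, is not on the list of 43. Its probe set is of a type shared within gene families, and it read 143.1, 106.9 and 164.9 in EGFP-high and 67.6, 64.7 and 105.5 in EGFP-negative cells. Every EGFP-high array was above every EGFP-negative one, the opposite order from Rrm2, with a difference of 0.68 (SE 0.23; limma adjusted p = 0.144, and 0.0412 with the block).

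**Figure D2:**
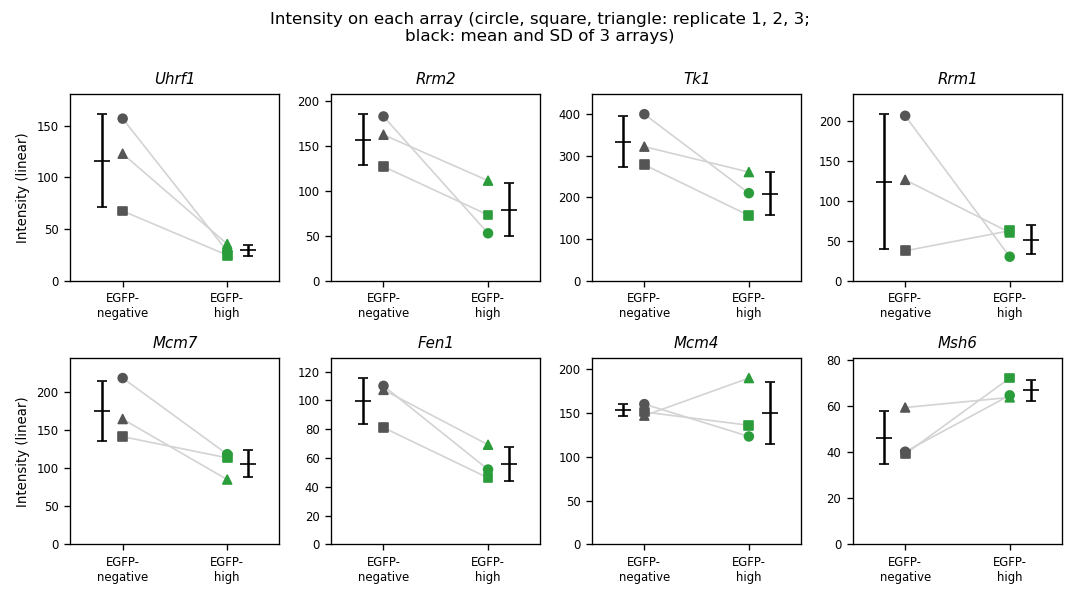
Intensity of 8 genes on each array (vertical axes, linear scale from 0), with grey lines joining arrays of the same replicate number and black bars giving the mean and SD of 3 arrays. The groups do not overlap for Uhrf1, Rrm2, Tk1, Mcm7, Fen1 and Msh6; they overlap for Mcm4 and for Rrm1, where replicate number 2 rises while numbers 1 and 3 fall.

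The helicase loading and firing genes differed little, with 0 of 7 tested genes called in either direction and a median of -0.16 over 10 genes. All 10 differences were negative, from -0.63 to -0.05. Mcm7, a subunit of the replicative helicase, read 118.4, 113.6 and 85.1 in EGFP-high and 218.3, 141.4 and 164.5 in EGFP-negative replicates 1, 2 and 3. Its groups did not overlap (106 ± 18 against 175 ± 39.5, SD, n = 3 each), and the difference was -0.63 (SE 0.20, 95% interval -1.09 to -0.16; limma adjusted p = 0.138, and 0.0609 with the block). Its partner subunit Mcm4 read 123.2, 135.9 and 189.8 against 160.1, 151.1 and 146.9. The EGFP-high arrays of Mcm4 lay on both sides of the EGFP-negative ones (difference -0.05, 95% interval -0.47 to 0.38; limma adjusted p = 0.937). The subunits Mcm2, Mcm3 and Mcm5 differed by -0.09, -0.10 and -0.31 with overlapping groups, and the lower ends of their intervals were -0.48, -0.47 and -0.78. The difference between Mcm7 and the other subunits was not tested. The second probe sets of Mcm3 and Mcm5 gave -0.45 and -0.21.

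Of the loading factors, Cdc6 differed by -0.08 (95% interval -0.49 to 0.33), and Cdc45, which joins the helicase when origins fire, by -0.36 (95% interval -0.80 to 0.09; limma adjusted p = 0.422). Cdc45 read 72.8, 69.1 and 79.4 in EGFP-high and 105.9, 119.2 and 77.8 in EGFP-negative replicates 1, 2 and 3, so the groups met only through EGFP-negative replicate 3. Mcm6, the origin recognition subunit Orc1 and geminin (Gmnn) were below the filter, with differences of -0.19, -0.12 and -0.40. Mcm6 was above background on 2 of the 6 arrays, Orc1 on 3 and Gmnn on 5. Gmnn read 43.6, 20.3 and 28.7 against 50.9, 40.5 and 46.2, and the groups overlapped through EGFP-high replicate 1.

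The polymerase and primase genes did not separate the gates. Of 5 tested genes 0 were called, the median over 6 genes was -0.23 and no gene had groups that did not overlap. Pold2, the small subunit of polymerase δ, had the largest difference of this group and read 84.2, 75.4 and 59.7 in EGFP-high and 197.8, 72.5 and 66.1 in EGFP-negative replicates 1, 2 and 3. The difference of -0.38 (SE 0.34; limma adjusted p = 0.648) came mostly from EGFP-negative replicate 1. The within-pair differences were -1.07, 0.04 and -0.11 for numbers 1, 2 and 3. Its probe set has a suffix (_r_at) that marks a less strict probe selection. Pold1, the catalytic subunit of polymerase δ, differed by -0.25 on its brighter probe set (180.8, 152.2 and 164.4 against 234.7, 202.8 and 167.7) and by 0.25 on the other (66.9, 132.2 and 93.6 against 47.9, 119.8 and 74.3). Both 95% intervals included 0, and the second probe set is also of the less strict type.

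Pola1, the catalytic subunit of polymerase α, differed by -0.21 (95% interval -0.62 to 0.20; limma adjusted p = 0.629). Its partner Pola2 gave 0.18 on a less strict probe set (168.7, 82.5 and 61.4 against 138.8, 95.5 and 39.1) and -0.02 on the other (67.4, 88.1 and 90.4 against 60.8, 92.1 and 100.1). On the first of these the arrays followed the replicate number more than the gate. The primase subunit Prim1 differed by 0.11 (95% interval -0.56 to 0.77). Prim2 was at or below background on all 6 arrays.

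Among the clamp, clamp loader, strand binding and flap processing genes 0 of 8 tested were called, with a median of -0.19. Fen1, the flap nuclease of lagging strand maturation, read 52, 46.2 and 69.2 in EGFP-high and 110.1, 81.1 and 107.3 in EGFP-negative replicates 1, 2 and 3. The groups did not overlap (55.8 ± 12 against 99.5 ± 16, SD, n = 3 each), and the difference was -0.66 (SE 0.21, 95% interval -1.14 to -0.19; limma adjusted p = 0.126, and 0.0668 with the block). Lig1, the ligase that seals the same fragments, read 36.1, 73.8 and 113.4 against 146.9, 113.6 and 77.8. The pair of number 3 went the other way from numbers 1 and 2, and the difference was -0.55 (95% interval -1.30 to 0.20; limma adjusted p = 0.466). It was -0.21 without EGFP-high replicate 1 and -0.03 without both arrays of number 1. The second Lig1 probe set was above background on 1 array and gave 0.18, and with both averaged Lig1 gave -0.19.

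The sliding clamp Pcna read 523, 473.7 and 588.6 in EGFP-high and 626.8, 464.1 and 786.9 in EGFP-negative replicates 1, 2 and 3. The values overlapped and were lowest for number 2 in both groups (difference -0.21, 95% interval -0.68 to 0.26; limma adjusted p = 0.679). The clamp loader subunit Rfc2 had the smallest difference of the tested members, 0.02 (183.7, 233.9 and 224.3 against 213.8, 194.1 and 224.4), with a 95% interval of -0.35 to 0.38. Rfc4 read 41.7, 32.8 and 37.8 against 52.7, 53.1 and 52.7, groups that did not overlap (difference -0.35, limma adjusted p = 0.467). Its EGFP-high values were all under the filter level, and 1 of the 3 was above background. It thus passed the filter through its EGFP-negative values. Rfc1 gave 0.15 on its brighter probe set (159.4, 112 and 140.4 against 116.7, 134.6 and 110.5) and -0.32 on the other, which was above background on 3 of 6 arrays. The strand binding subunits Rpa1 and Rpa2 differed by -0.17 and 0.38. Rpa2 read 32.9, 78.8 and 66.7 against 71.7, 9.5 and 57.7, and its positive difference rested on EGFP-negative replicate 2, without which it was -0.14.

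The repair and checkpoint genes had a median of -0.08 over 5 genes, with 0 of 4 tested genes called. Msh6, which recognises mismatched bases, had the largest positive difference of the whole set. It read 64.8, 72.3 and 63.9 in EGFP-high and 40.3, 39.3 and 59.5 in EGFP-negative replicates 1, 2 and 3. The groups did not overlap (67 ± 4.61 against 46.4 ± 11.4, SD, n = 3 each), and the difference was 0.41 (SE 0.21, 95% interval -0.08 to 0.89; limma adjusted p = 0.397). Chek1, the checkpoint kinase of S phase, differed by -0.32 (95% interval -0.85 to 0.21). Ung, which removes uracil from DNA, gave 0.09 and 0.08 on its probe sets. Xrcc1, a scaffold of single-strand break repair, read 56.8, 49.5 and 54.9 against 65.6, 58.6 and 49.7 (difference -0.08). Its second probe set, of a type shared within gene families, ran from 11.4 to 111.3 among EGFP-high arrays alone and gave 0.02. Brca1 was below the filter and overlapped (difference -0.09, 95% interval -0.82 to 0.64). All 4 tested genes of this group had intervals within 2-fold.

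The regulators of entry into S phase showed 0 calls among 3 tested genes and a median of -0.07 over 5. Cyclin E1 (Ccne1), which activates Cdk2, read 107, 205.2 and 144.6 in EGFP-high and 115.6, 200.6 and 162.1 in EGFP-negative replicates 1, 2 and 3. Its values followed the replicate number closely and hardly differed between gates (difference -0.07, 95% interval -0.65 to 0.51; limma adjusted p = 0.929). Cyclin E2 (Ccne2) read 7.5, 0.6 and 6.9 against 16.4, 8.2 and 17.6. The groups of Ccne2 did not overlap, but all 6 values were at or below background, so this is no measure of its level. The phosphatase gene Cdc25a differed by 0.09, from 208.7, 213 and 158 against 133.8, 214.6 and 199.9. Its second probe set was at or below background on every array and gave 0.08. E2f1 was below the filter on both probe sets, which differed in sign. The brighter read 13.6, 37.1 and 18.8 against 23.6, 54.6 and 33.4 (difference -0.41) and was above background on 3 arrays. The other read 9.3, 29.4 and 6.1 against 28.7, 7.5 and 4.8 (difference 0.06). It was at or below background on every array, so its sign is no measure of E2f1. Mybl2, a partner of the complex that turns on late cell cycle genes, read 153.3, 138.6 and 133.7 against 121.8, 157.8 and 92 on a probe set of the gene family type (difference 0.19). The other Mybl2 probe set read 13.8, 16.3 and 10.1 against 19.4, 19.3 and 45.9 (difference -0.50), opposite in sign and above background on 1 array.

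Promoter sequences are shown for the 3 genes that passed the threshold in either fit, and for Mcm7 and Mcm5, which were added after their values were seen as helicase genes that hold E2F motifs. They are RefSeq windows of the GRCm38.p6 build, from 250 bases before to 50 after a transcript start, and were found for 36 of the 41 genes. The motifs searched, on both strands, were the E2F motifs TTTGGCGC, TTTCCCGC, TTTCGCGC and TTTGCCGC, the CCAAT box CCAAT, and the cell cycle homology region TTTGAA, an element of many mitotic genes. Capitals mark matches on either strand, and runs of capitals can hold overlapping matches, such as E2F motifs on opposite strands. Uhrf1 has windows at chr17:56303087-56303386 and chr17:56304063-56304362 (plus strand). Rrm2 is at chr12:24708004-24708303 (plus strand), Tk1 at chr11:117825965-117826264 (minus strand), Mcm7 at chr5:138171834-138172133 (minus strand) and Mcm5 at chr8:75109259-75109558 (plus strand). Mcm7 has another window, with no E2F match, and the Tk1 window starts inside the annotated span of the gene.
Uhrf1, upstream start: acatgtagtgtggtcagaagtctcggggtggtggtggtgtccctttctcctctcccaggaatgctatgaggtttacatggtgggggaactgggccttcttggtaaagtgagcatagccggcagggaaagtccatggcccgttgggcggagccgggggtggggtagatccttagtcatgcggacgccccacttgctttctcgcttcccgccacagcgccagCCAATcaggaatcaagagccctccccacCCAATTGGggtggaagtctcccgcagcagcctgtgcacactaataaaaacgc
Uhrf1, downstream start: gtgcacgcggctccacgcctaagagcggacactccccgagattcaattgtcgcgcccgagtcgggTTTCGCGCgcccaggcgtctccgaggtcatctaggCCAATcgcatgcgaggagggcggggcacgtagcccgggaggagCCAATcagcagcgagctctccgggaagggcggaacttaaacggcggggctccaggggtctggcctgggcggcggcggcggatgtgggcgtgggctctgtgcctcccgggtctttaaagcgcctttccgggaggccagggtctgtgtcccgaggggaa
Rrm2: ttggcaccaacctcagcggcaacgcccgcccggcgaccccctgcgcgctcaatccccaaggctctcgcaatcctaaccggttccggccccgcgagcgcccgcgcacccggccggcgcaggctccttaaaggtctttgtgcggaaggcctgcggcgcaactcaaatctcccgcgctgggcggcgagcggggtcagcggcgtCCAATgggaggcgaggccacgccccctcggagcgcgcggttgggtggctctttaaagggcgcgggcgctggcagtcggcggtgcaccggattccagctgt
Tk1: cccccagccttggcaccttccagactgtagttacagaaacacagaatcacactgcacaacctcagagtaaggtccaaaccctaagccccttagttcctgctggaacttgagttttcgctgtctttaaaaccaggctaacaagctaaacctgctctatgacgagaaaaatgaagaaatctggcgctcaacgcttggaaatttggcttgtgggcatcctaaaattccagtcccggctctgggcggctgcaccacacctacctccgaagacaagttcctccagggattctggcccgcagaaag
Mcm7: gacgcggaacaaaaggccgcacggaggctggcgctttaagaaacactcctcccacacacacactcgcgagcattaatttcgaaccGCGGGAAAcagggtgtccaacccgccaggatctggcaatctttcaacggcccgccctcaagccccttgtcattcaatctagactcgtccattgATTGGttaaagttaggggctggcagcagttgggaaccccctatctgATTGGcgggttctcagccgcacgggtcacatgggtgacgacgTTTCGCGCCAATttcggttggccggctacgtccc
Mcm5: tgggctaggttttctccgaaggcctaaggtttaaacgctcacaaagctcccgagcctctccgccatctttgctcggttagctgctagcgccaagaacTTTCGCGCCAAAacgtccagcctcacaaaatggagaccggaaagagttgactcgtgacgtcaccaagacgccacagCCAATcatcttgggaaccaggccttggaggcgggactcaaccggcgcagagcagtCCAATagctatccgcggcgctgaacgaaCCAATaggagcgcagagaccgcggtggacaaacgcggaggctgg

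An E2F motif was present in the windows of 13 of the 36 members with a window (36.1%), against 4.33% of the 6561 array genes with one. By role it was found for 6 of 8 helicase loading and firing genes, 2 of 5 polymerase and primase genes, 1 of 7 clamp and flap genes, 0 of 4 nucleotide supply genes, 1 of 5 repair genes, 1 of 4 entry regulators and 2 of 3 chromatin genes. The helicase genes had the largest share, and their median difference was -0.16. A link between motifs and differences was not tested. The median difference was -0.21 for the 13 members with the motif, from -1.42 for Uhrf1 to 0.41 for Msh6. It was -0.11 for the 23 without it, from -0.88 for Rrm2 to 0.38 for Rpa2. Uhrf1 holds TTTCGCGC in its downstream window, 185 bases before the start, and Rrm2 and Tk1 hold none of the 4 E2F motifs in these windows. A match is only a match of letters, and its absence says nothing about binding. The cell cycle homology region was found for 13.9% of the members with a window and 15.5% of array genes, and the CCAAT box for 61.1% and 42.5%.

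**Figure D3:**
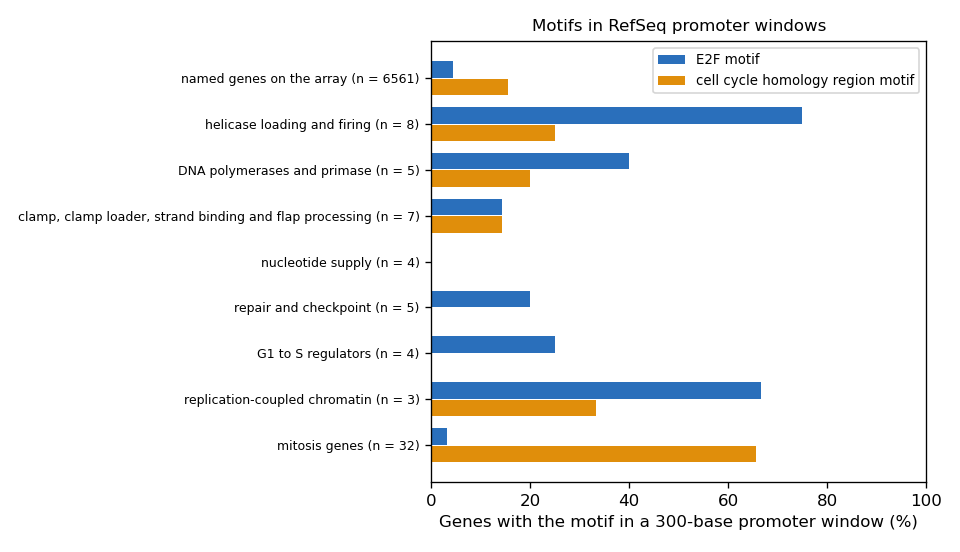
Share of genes (horizontal axis, percent, from 0) with an E2F motif or a cell cycle homology region in any RefSeq window, for all named array genes, the 7 role groups and the mitosis genes, with the number of genes that had a window. The E2F motif was found for 75% of helicase genes and 3.12% of mitosis genes, and the homology region for 65.6% of mitosis genes.

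Other genes of the same pathways were read from lists of known replication, repair and mitosis genes. Of 40 other replication genes on the array, 31 were tested, 1 was lower and 1 higher, and the median over the 40 was -0.04. The shares of all tested genes were 2.27% lower and 3.06% higher. Top2a, the topoisomerase that untangles sister DNA in S phase and mitosis, read 49.8, 25.5 and 50.8 in EGFP-high and 138.4, 90.5 and 164.2 in EGFP-negative replicates 1, 2 and 3 (difference -1.29, SE 0.27, limma adjusted p = 0.0253). Pole4, a histone-fold subunit of polymerase ε, read 102.5, 150 and 191 against 55.3, 59.9 and 71.8 (difference 1.0, SE 0.23, limma adjusted p = 0.0396). Neither group overlapped. Of 49 other repair genes, 37 were tested, 0 were called in either direction and the median was -0.08. With the block the counts were 1 lower and 3 higher among replication genes and 1 lower, the base excision polymerase gene Polb, among repair genes. The shares of all tested genes were then 5.33% lower and 5.29% higher. When 1 array was left out, the call of Top2a was lost for EGFP-high numbers 2 and 3 and EGFP-negative numbers 1 and 3. The call of Pole4 was lost for the same arrays and for EGFP-negative number 2 (0 other replication genes higher in each case).

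The mitosis genes, which act later in the same cycle, gave a different picture on the same arrays. Of 40 on the array 36 were tested and 11 were called lower and 0 higher, with 21 lower under the block. The called gene Aurkb read 34.1, 26.4 and 25.7 in EGFP-high and 135, 111.8 and 159.1 in EGFP-negative replicates 1, 2 and 3. All its EGFP-high values were under the filter level, so it passed the filter through its EGFP-negative values. Kif20a was under that level in EGFP-high replicates 1 and 2 (28.1 and 33.5) and Kif23 in replicate 3 (38.3). With no filter 7 of the 40 were lower, beside 1.22% of all named genes. Among all tested genes 2.27% were called lower and 3.06% higher, and 5.33% lower under the block. The groups did not overlap, with EGFP-high lower, for 25 of the 40, beside 9.26% of all named genes. The median difference was -0.84. Within replicate numbers 1, 2 and 3 the mitosis medians were -1.05, -0.60 and -0.89, beside the -0.25, -0.23 and -0.12 given above for replication and repair. The mitosis median was thus the lower one in each of the 3 pairs. The difference between the lists was not tested. The lists also differed in signal. On all arrays 29 of the 40 mitosis genes were above background, beside 24 of the 41 replication and repair genes. The part of signal level in the medians was not tested. The count of mitosis genes called ranged from 5 to 16 when single arrays were left out (5 when the array removed was EGFP-high number 2 or EGFP-negative number 1 or 3), and that of replication and repair genes from 0 to 2.

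**Figure D4:**
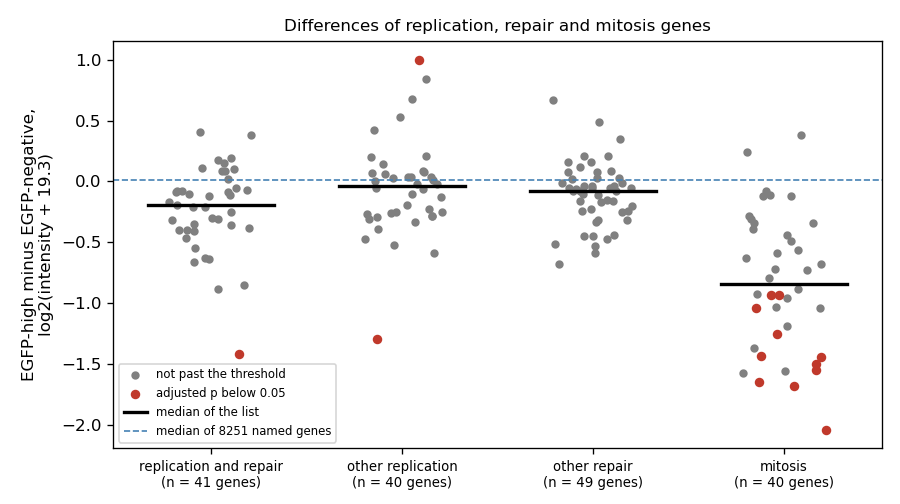
Difference of each gene (vertical axis, log2 scale; horizontal jitter has no meaning) in 4 lists, with the median of each list as a black line and that of all 8251 named genes as a dashed line; red marks an adjusted p below 0.05. The median is -0.19 for replication and repair genes and -0.84 for mitosis genes, which hold 11 of the 14 red points.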

How the data were processed

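The authors deposited linear intensities for 12488 rows of an Affymetrix mouse array, 1 column per sample. With 2% of values trimmed from both ends, column means were 150.06 to 150.08, so the arrays had been scaled alike before deposit. Which software, background method and filters made them is not given in the sources used here. No read depth applies, and the number of arrays (3 per group) limits the precision.

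The 66 control rows were left out. Of the other 12422 probe sets 10833 had 1 gene symbol in the platform annotation, 396 several and 1193 none listed. Entrez identifiers matched 10839 probe sets to a RefSeq gene table (GRCm38.p6, used for names) and changed 0 symbols. The pseudocount, 19.3, is the 25th percentile of values above 0. Probe sets above the 40th percentile of mean log2 value, an intensity near 44.6, were tested (7453 probe sets, 5628 genes) with limma 3.58.1 in R 4.3.3 (lmFit, eBayes with an intensity trend, two-sided, Benjamini-Hochberg). The script was tested on simulated data.

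Between same-numbered arrays, deviations from the means of the groups had correlations of 0.336, 0.368 and 0.305, all above 0.1, so the numbers in the titles were taken to pair the samples. The fit given first has no block, and blocked values are given where they changed a call or a count. Alternatives were other pseudocounts, filters and scalings, no trend, the mean over probe sets, the block and single arrays left out. The members, lists and alternatives were chosen with earlier results of these data known. Genes given array by array are those called in either fit, the largest difference of each role group and members whose probe sets disagree. So are the 3 largest positive and the 3 smallest tested differences. For Tk1, Lig1, Rfc1 and Xrcc1 the arrays are given for the brightest probe set alone. Others given array by array were chosen after their values were seen.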

Additional observations from a re-analysis of the deposited data

How the results depend on the processing

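Among all probe sets 387 passed the threshold, 778 with a replicate block and 191 to 500 without single arrays. Of the replication and repair genes 1 was lower. The count was 3 with the replicate block and 0 with no filter, with the 60th percentile as filter (where Uhrf1 was not tested) and without both arrays of number 1, an alternative chosen after seeing the data. It was 0 to 2 without single arrays, and 0 genes were higher under any of the alternatives run. The median over all members, -0.19, was -0.11 with a pseudocount 4 times as large and -0.28 to -0.16 without single arrays. The helicase median, -0.16, was -0.08 with that pseudocount, -0.23 with probe sets averaged, -0.25 with plain probe sets preferred (chosen after seeing the data) and -0.32 to -0.06 without single arrays. The polymerase median, -0.23, was -0.13 with that pseudocount, -0.11 with probe sets averaged and -0.29 to -0.04 without single arrays. The median of entry regulators, -0.07, was -0.28 to 0.09 without single arrays, that of clamp and flap genes -0.32 to -0.12, of nucleotide supply -0.88 to -0.46, of repair genes -0.11 to 0.17 and of chromatin genes -0.48 to -0.34. With probe sets averaged the nucleotide supply median was -0.34, the repair median -0.03 and that of entry regulators -0.15. The chromatin median, -0.40, was -0.60 with a pseudocount 25% as large and -0.17 with one 4 times as large, where the repair median was -0.03.

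With the replicate block 21 mitosis genes were lower, 3 other replication genes higher and 1 other repair gene lower. Mitosis genes lower came to 7 with no filter, 17 with no filter and a replicate block, 6 without both arrays of number 1 and 5 to 16 without single arrays. Of all named genes 1.22% were lower with no filter and 2.36% with no filter and a replicate block. Other replication genes lower came to 0 with no filter, the stricter filter or without both arrays of number 1, and 0 to 1 without single arrays. Those higher came to 0 with no filter, the stricter filter, quantile normalization or a common median, and 0 to 1 without single arrays. Other repair genes lower came to 1 without both arrays of number 1 and 0 to 1 without single arrays. Some uncalled differences of single genes changed sign. Without single arrays Ccne1 ran from -0.28 to 0.13, Mcm4 from -0.21 to 0.07, Pola2 from -0.22 to 0.50, Pold2 from -0.62 to 0.05, Rfc2 from -0.05 to 0.11 and Rpa2 from -0.14 to 0.69. With probe sets averaged, Mybl2 gave -0.15, Rfc1 -0.08 and Pold1 0.0, while Tk1 and Lig1 kept their sign at -0.24 and -0.19. Rfc2 gave -0.04 with a common median, Mcm4 0.10 without both arrays of number 1, and Pola2 -0.02 with plain probe sets preferred. None of these passed the threshold in any of those settings. The cause of these changes was not tested, beyond the fewer arrays or different probe sets each setting uses.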

Other observations

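The subunits of chromatin assembly factor 1, which places histones on newly copied DNA, went in opposite directions on these arrays. They were chosen after their values were seen. Chaf1a, the large subunit, read 112.5, 191 and 89 in EGFP-high and 68.9, 62.9 and 53.6 in EGFP-negative replicates 1, 2 and 3, with no overlap (difference 0.84, SE 0.26; limma adjusted p = 0.119, and 0.0464 with the block). Chaf1b, the middle subunit, read 65.1, 63.6 and 70.1 against 111.2, 104.6 and 83, also with no overlap (difference -0.47, SE 0.18; limma adjusted p = 0.23, and 0.181 with the block). Of the differences only that of Chaf1a passed the threshold, and only with the block; the difference between the subunits was not tested. Dnmt1, the maintenance methyltransferase that Uhrf1 recruits, read 406.5, 437.1 and 459.9 against 364, 549.7 and 452.5, with overlapping groups (difference -0.05; limma adjusted p = 0.93). Rpa3, the smallest subunit of the strand binding complex, read 72.9, 106.9 and 97.8 against 111, 151.7 and 161, where the highest EGFP-high value was below the lowest EGFP-negative one (difference -0.52; limma adjusted p = 0.227).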
